A study of Mus musculus with 5 samples.

Results

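The genes described here encode proteins of the fibrillin microfibril (Fbn1, Fbn2, Mfap2, Ltbp1, Ltbp2), the lysyl oxidases Lox and Loxl1, and the leucine-rich proteoglycans Podn, Bgn and Dcn. They were taken by symbol, and all 10 were found, each as 1 row, among the 22183 genes of the deposited table. RNA was sequenced from whole mouse lenses at postnatal day 14 (P14). The cKO group (conditional knockout of Yap1, a transcriptional co-activator restrained by the Hippo pathway) had 2 libraries, from mice carrying Cre with Yap1 alleles f/f or f/+ (f, floxed), chosen by a severe eye phenotype, with small eyes and a closed pupillary membrane. The Ctrl group had 3 libraries, from littermates with f/f or f/+ floxed alleles and no abnormality, which the genotype field calls WT. All groups therefore carry floxed Yap1 alleles, the cKO pools may mix homozygous and heterozygous animals, and which promoter drives Cre was not stated in what was used here. Each library was a pool of 4 to 6 lenses, and the pools are the replicates (n = 2 and n = 3) in every comparison.

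Fibrillin microfibrils are thin extracellular filaments. In the eye they form the ciliary zonule, which holds the lens in place and inserts into its capsule. Its fibrillin is made mainly by the ciliary epithelium, outside the lens, and Mfap2 (MAGP1) and the latent TGF-β binding proteins (LTBPs) associate with fibrillin. Lysyl oxidases oxidise lysines of elastin and collagen so that these can cross-link, and small leucine-rich proteoglycans such as biglycan (Bgn) and decorin (Dcn) bind collagen and TGF-β family ligands.

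The libraries held 22047580 to 25762802 expected counts. Yap1 had 92 and 61 counts in cKO 1 and 2, against 155, 133 and 143 in Ctrl 1, 2 and 3. Its log2 difference of −1.08 did not pass the test (edgeR adjusted p = 0.0759). DESeq2 called it lower (−1.07, DESeq2 adjusted p = 0.0392), while edgeR with total-count scaling did not (−0.89, edgeR adjusted p = 0.0921). CPM here are counts scaled to a common library size after TMM correction for composition. Across genes, log2 CPM of cKO 1 and cKO 2 correlated at a Pearson r of 0.871, against 0.962 to 0.978 for pairs of Ctrl libraries. The Y-linked gene Ddx3y had 0 counts in both cKO libraries and 656 to 854 in Ctrl, so sex and genotype cannot be told apart. The labels give no batch. In whole-lens RNA, fewer cells of a type and less RNA per cell cannot be told apart either.

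Levels were compared between genes on FPKM, which the authors scaled to gene length. In Ctrl, Mfap2 stood first at 80.4 ± 22.1 FPKM (SD, n = 3), rank 345 of the 22183 genes. Podn followed at 14 ± 3.2 FPKM and Loxl1 at 9.36 ± 2.08 FPKM. These neighbours overlapped, since the lowest Podn library (10.9 FPKM) lay below the highest Loxl1 library (11.4 FPKM). Ltbp1 lay at 2.09 ± 0.0622 FPKM and Bgn at 0.773 ± 0.112 FPKM, and neither overlapped its neighbours in the order. The other genes were lower. Fbn1 had 0.114 ± 0.0451 FPKM, Lox 0.073 ± 0.0828 FPKM, and Ltbp2, Dcn and Fbn2 had means of 0.033, 0.0173 and 0.00767 FPKM, with overlapping libraries throughout. RNA of the microfibril-associated protein was thus abundant in control lenses, while Fbn1 RNA was low (16 to 35 counts) and Fbn2 RNA close to the detection limit.

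**Figure D1:**
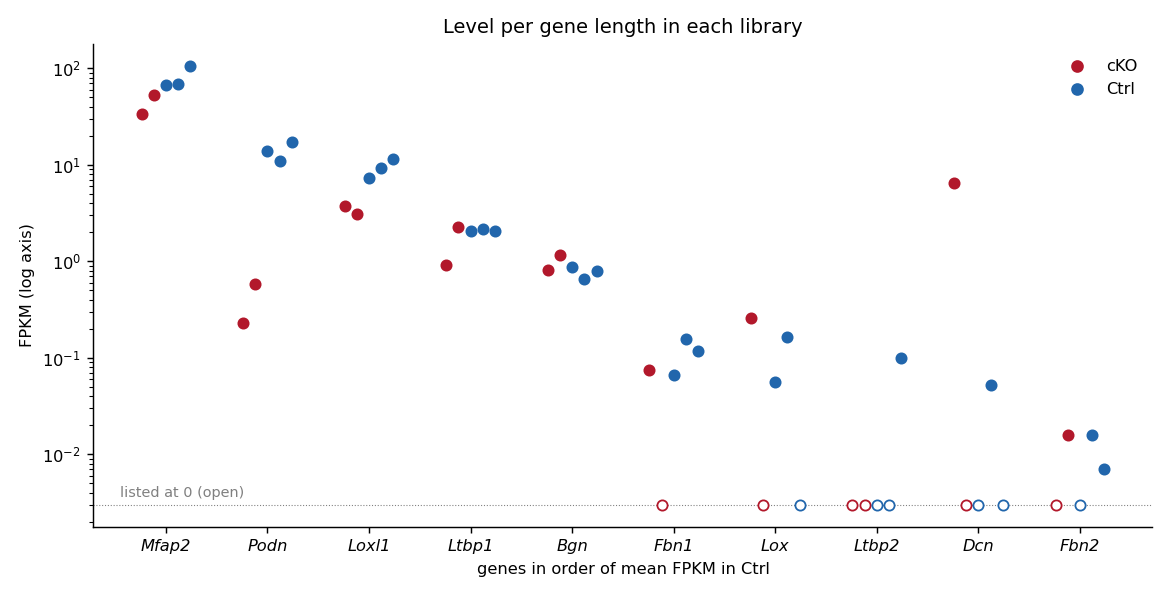
Level per gene length (FPKM, log axis) of the 10 genes in each of the 5 libraries, in order of the mean in Ctrl. Open symbols are values listed at 0. Mfap2, Podn and Loxl1 lead in Ctrl, Podn drops below Bgn in both cKO libraries, and Dcn stands at 6.43 FPKM in cKO 1 only.

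The comparison asked which of these transcripts differ in the affected lens. Podn, Loxl1 and Mfap2, the highest 3 in Ctrl, fell in cKO, and none of the tested genes was called higher. Dcn, which was not tested, was high in cKO 1 only (275 counts, against 0 in cKO 2 and 0 to 2 in Ctrl). Of the 10 genes, 7 passed the filter on low counts and were tested (Fbn1, Mfap2, Ltbp1, Lox, Loxl1, Podn and Bgn), and Fbn2, Ltbp2 and Dcn did not. Among all 11724 genes tested, 7.73% were called lower and 5.76% higher, 13.5% in all, at an adjusted p under 0.05 (edgeR quasi-likelihood test with Benjamini-Hochberg adjustment, as for each adjusted p below unless another tool is named). These were 906 lower and 675 higher genes, and with scaling by total counts alone 717 lower and 1234 higher, with the median over all genes moving from −0.056 to 0.162. The median log2 fold change of the 7 tested genes was −1.12, against −0.06 over all genes tested. At an unadjusted p under 0.05 edgeR gave the same 3 lower and 0 higher. The 3 called genes pass that threshold by construction, and how many of all genes pass it is not given here. DESeq2 after adjustment gave 3 lower and 0 higher, against 1521 lower and 1209 higher over all 11724 genes tested. Podn also passed with each of the 5 libraries left out, whereas Loxl1 and Mfap2 each missed the threshold when any 1 of the Ctrl libraries was left out (edgeR adjusted p from 0.0633 to 0.0991 and from 0.111 to 0.121). Over all genes, leaving out Ctrl 1, Ctrl 2 or Ctrl 3 lowered the calls to 26, 6 and 30 higher and 39, 15 and 52 lower.

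**Figure D2:**
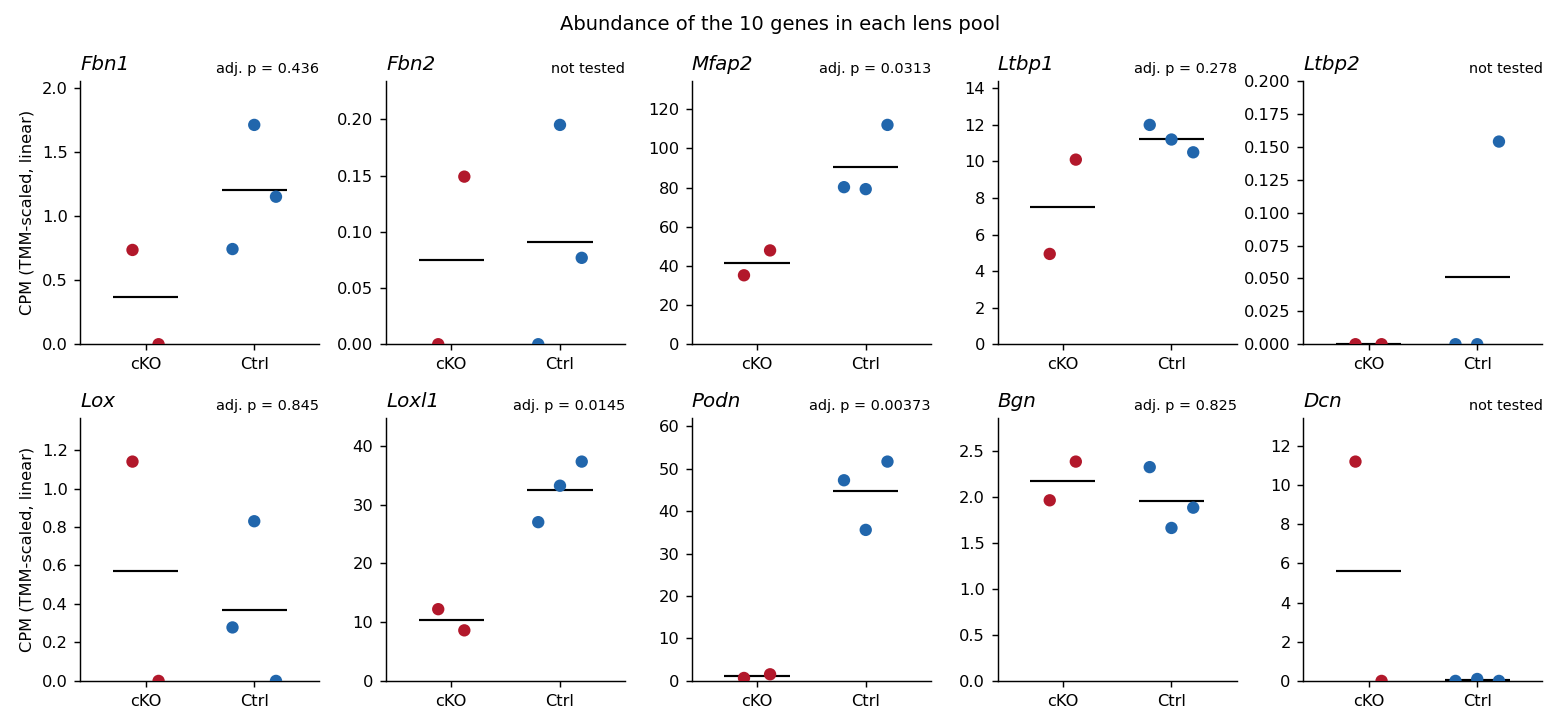
CPM after TMM scaling (linear axes, each panel with its own range) of the 10 genes, 1 point for each library and a bar at the group mean, with edgeR's adjusted p where the gene was tested. Both cKO libraries lie below every Ctrl library for Fbn1, Mfap2, Ltbp1, Loxl1 and Podn, of which Podn is separated most, while Fbn2, Ltbp2, Lox, Bgn and Dcn overlap.

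Both cKO libraries lay below every Ctrl library in CPM for 5 of the 7 tested genes, Fbn1, Mfap2, Ltbp1, Loxl1 and Podn. The same held for 28.7% of all genes tested. In FPKM it held for 3 of them, Mfap2, Loxl1 and Podn, against 20.4% of all genes tested. For no gene of the set did both cKO libraries lie above every Ctrl library in CPM or FPKM, against 22.8% of all genes tested in CPM and 31.0% in FPKM.

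Fbn1 and Fbn2 encode the fibrillins, the backbone of the microfibril. Fbn1 (ENSMUSG00000027204) had 18 and 0 counts in cKO 1 and 2, against 16, 35 and 30 in Ctrl 1, 2 and 3. In CPM these were 0.735 and 0 against 0.742, 1.71 and 1.15, so that cKO 1 lay just under the lowest Ctrl library. In FPKM, cKO 1 (0.075) lay above Ctrl 1 (0.067). Its log2 difference of −1.70 (SE 1.36) did not pass (edgeR adjusted p = 0.436). Fbn2 (ENSMUSG00000024598), the fibrillin known mainly from embryonic tissue, had 0 and 4 counts in cKO, against 0, 4 and 2 in Ctrl, too few to test or to give a fold. A count of 0 allows up to 3 counts, which is 0.112 to 0.146 CPM in these libraries and covers counting error only. Of the summed fibrillin FPKM, Fbn2 made up 0, 9.25 and 5.6% in Ctrl 1, 2 and 3, 0% in cKO 1 and 100% in cKO 2, where Fbn1 was listed at 0.

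Mfap2 (ENSMUSG00000060572), whose product binds fibrillin along the microfibril, was the leading gene of the set in every library. It had 862 and 1286 counts in cKO 1 and 2, against 1728, 1623 and 2927 in Ctrl 1, 2 and 3. After scaling these were 35.2 and 47.9 CPM against 80.2, 79.2 and 112 CPM, and the groups did not overlap. Ctrl 3 was the highest, and the other Ctrl libraries were close to each other. In log2 terms Mfap2 fell by 1.12 (SE 0.23, edgeR adjusted p = 0.0313), 2.18-fold. The fall was smaller and missed the threshold with total-count scaling (−0.9, edgeR adjusted p = 0.0848) and on log2(FPKM + 1) (−0.89, limma adjusted p = 0.0604). It made up 73.3 to 76.9% of the summed FPKM of the 10 genes in Ctrl, 72.8% in cKO 1 and 88.1% in cKO 2.

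Promoter sequence is shown for Mfap2 and Podn, 2 of the 3 genes called lower. Yap1 acts on promoters and enhancers through TEAD factors, and whether it acts on these genes was not tested. RefSeq windows (250 bases before to 50 after a start site, build GRCm38.p6, whereas the submitters' processing notes name GRCm39) were at hand for 6 of the 10 genes, 9 windows in all. They were Bgn, Fbn1, Ltbp1, Ltbp2, Mfap2 and Podn. Each was searched on both strands for GGAATG (the core bound by TEAD factors), CAGAC (a SMAD-binding box, the sequence through which TGF-β signals) and TATAAA. No match overlapped another in the windows shown. GGAATG was found in 1 of the 9 windows, an Mfap2 window, against 14.7% of all 32851 windows. CAGAC was found in 5 of the 9, against 49.6% of all, and TATAAA in none, against 13.6% of all. The Mfap2 window that holds GGAATG lies at chr4:141010174-141010473, plus strand, and is shown 5′ to 3′ with the GGAATG match and 1 CAGAC match (on the other strand, as GTCTG) in capitals. Another Mfap2 window, which overlaps its end, held neither.
Mfap2: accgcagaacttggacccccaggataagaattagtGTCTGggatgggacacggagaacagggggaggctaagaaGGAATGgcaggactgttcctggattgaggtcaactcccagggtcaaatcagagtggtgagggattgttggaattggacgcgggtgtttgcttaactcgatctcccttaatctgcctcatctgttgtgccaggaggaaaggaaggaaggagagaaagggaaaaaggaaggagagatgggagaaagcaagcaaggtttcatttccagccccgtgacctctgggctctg

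LTBPs tether latent TGF-β in the matrix. Ltbp1 (ENSMUSG00000001870), the main such protein, had 121 and 272 counts in cKO 1 and 2, against 259, 230 and 273 in Ctrl 1, 2 and 3. In CPM it stood at 4.94 and 10.1 against 12, 11.2 and 10.5. Only cKO 1 was clearly low, and in FPKM cKO 2 (2.26) lay above every Ctrl library (2.04 to 2.16). The log2 difference of −0.57 (SE 0.33) did not pass (edgeR adjusted p = 0.278). It was −0.16 without cKO 1 and −1.18 without cKO 2 (edgeR adjusted p = 0.531 and 0.00398, each from 1 cKO library taken to have the controls' spread). Ltbp2 (ENSMUSG00000002020), an LTBP that binds fibrillin and is a component of the zonule rather than a carrier of TGF-β, had 4 counts in Ctrl 3 and 0 in the other 4 libraries. No fold is given for it.

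Of the lysyl oxidases, Loxl1 was the one with a substantial level. Loxl1 (ENSMUSG00000032334), which acts in elastic fibre upkeep and whose human counterpart is associated with exfoliation syndrome of the anterior eye, had 298 and 231 counts in cKO 1 and 2, against 581, 680 and 972 in Ctrl 1, 2 and 3. In CPM it stood at 12.2 and 8.6 against 27.0, 33.2 and 37.3. The groups did not overlap, with cKO 2 the lowest and Ctrl 3 the highest library. Loxl1 fell by 1.65 (SE 0.24, edgeR adjusted p = 0.0145), 3.13-fold. Lox (ENSMUSG00000024529), the founding enzyme of the family, had 28 and 0 counts in cKO, against 6, 17 and 0 in Ctrl. Its libraries overlapped, 1 library in each group was at 0, and its log2 difference of 0.64 (SE 1.83) did not pass (edgeR adjusted p = 0.845). Loxl1 made up 98.3 to 100% of the summed FPKM of Loxl1 and Lox in Ctrl, and 93.5 and 100% in cKO.

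Podn showed the largest difference of the 7 tested genes. Podn (ENSMUSG00000028600) encodes podocan, a secreted leucine-rich repeat proteoglycan that binds collagen. It had 17 and 42 counts in cKO 1 and 2, against 1020, 729 and 1347 in Ctrl 1, 2 and 3. In CPM these were 0.694 and 1.56 against 47.3, 35.6 and 51.7, so that the groups lay far apart. In log2 terms Podn fell by 5.3 (SE 0.4, edgeR adjusted p = 0.00373), 39.3-fold. RefSeq gives 2 Podn windows. The one with the higher share of G and C (77%, against a median of 52.7% over all windows) is at chr4:108031905-108032204, minus strand, and has no match to the motifs searched, hence no capitals. The other held 1 CAGAC match. An absent match says only that these letters are not in this window.
Podn: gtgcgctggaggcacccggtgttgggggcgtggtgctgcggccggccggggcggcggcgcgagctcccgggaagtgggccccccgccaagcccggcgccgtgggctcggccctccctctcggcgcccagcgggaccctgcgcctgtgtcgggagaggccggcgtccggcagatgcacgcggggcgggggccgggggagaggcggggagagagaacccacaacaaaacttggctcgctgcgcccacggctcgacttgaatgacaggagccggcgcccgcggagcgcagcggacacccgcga

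Biglycan and decorin are close relatives that each carry chondroitin or dermatan sulfate chains. Bgn (ENSMUSG00000031375), an X-linked gene, had 48 and 64 counts in cKO 1 and 2, against 50, 34 and 49 in Ctrl 1, 2 and 3. In CPM it stood at 1.96 and 2.38 against 2.32, 1.66 and 1.88. The groups overlapped, and the log2 difference of 0.15 (SE 0.39) did not pass (edgeR adjusted p = 0.825). The order of Podn and Bgn was therefore inverted. The ratio of Podn to Bgn in FPKM was 15.9, 16.6 and 22 in Ctrl 1, 2 and 3 and 0.281 and 0.5 in cKO 1 and 2.

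Dcn (ENSMUSG00000019929) had 275 counts in cKO 1, 0 in cKO 2, and 0, 2 and 0 in Ctrl 1, 2 and 3. At 6.43 FPKM it was the second of the 10 genes in cKO 1, after Mfap2, and it was listed at 0 in cKO 2. It did not pass the filter, which needs enough counts in 2 libraries. The ratio of the summed, scaled counts of cKO to those of Ctrl was 182, with an exact 95% interval of 50 to 1510 that covers counting error only and not the difference between pools. With all genes kept in the fit, its log2 difference of 7.31 (SE 2.1) did not pass (edgeR adjusted p = 0.071). With cKO 2, the cKO library at 0, left out, Dcn passed the filter only through cKO 1, so that fit is no test of it. Of the summed FPKM of Bgn and Dcn, Bgn held 92.6 to 100% in Ctrl, 100% in cKO 2 and 11.3% in cKO 1.

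Like Dcn, Fbn1 and Lox had counts in cKO 1 and 0 in cKO 2, a feature chosen after the values were seen. Their Ctrl counts differed, at 0 to 2 for Dcn, 16 to 35 for Fbn1 and 0 to 17 for Lox. Of the 8 genes with at least 10 counts in cKO 1, these 3 had 0 counts in cKO 2, against 6.16% of the 10975 genes of the table with at least 10 counts in cKO 1. In the other direction, of 5 genes with at least 10 counts in cKO 2, 0 were at 0 in cKO 1, against 3.86% of 10717. Of the genes in the 5 pathway lists below, 57 had at least 10 counts in cKO 1, and 4 of these were at 0 in cKO 2 (Adamtsl4, Tll1, Lum and Aspn). In the other direction 56 had at least 10 counts in cKO 2, and 2 were at 0 in cKO 1 (Adamtsl1 and Xylt1). Lum, which encodes the proteoglycan lumican, had 28 counts in cKO 1 and 0 in each other library. Aspn (asporin) had 26 counts in cKO 1, 0 in cKO 2 and 7 to 9 in Ctrl. Of the cell type markers below, 8 of 65 with at least 10 counts in cKO 1 were at 0 in cKO 2, and 0 of 52 the other way round. The 8 were Col3a1, Pdgfra, Kdr, Adgre1, Mlana, Oca2, Pde6b and Prph2. The fibrillar collagen gene Col3a1 had 54 counts in cKO 1 and 2 to 7 in Ctrl. Pdgfra, in the same fibroblast list, had 48 counts in cKO 1 but 415 to 513 in Ctrl. The part of other cells in the Dcn value was not tested. These genes were named after their values were seen.

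**Figure D3:**
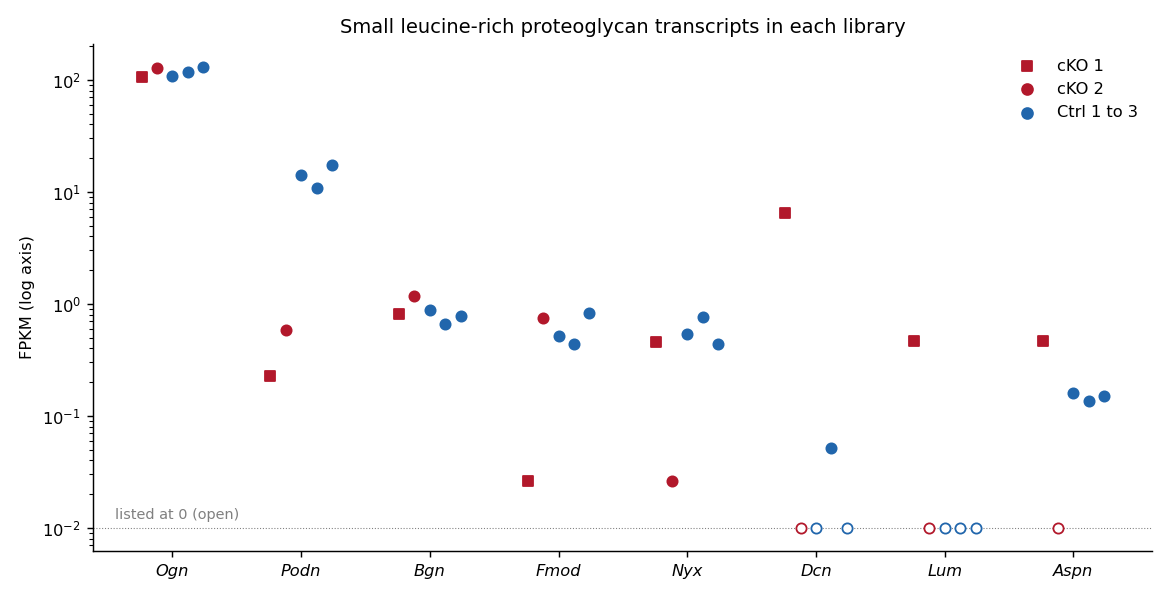
FPKM (log axis) of 8 small leucine-rich proteoglycan genes in each library, with values listed at 0 drawn as open symbols. Ogn lies between 105 and 130 FPKM in all 5 libraries, Podn is low in both cKO libraries, and Dcn and Lum are high only in cKO 1. Nyx, Lum and Aspn were chosen for this plot after their values were seen.

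The other leucine-rich proteoglycans set Podn in context. Of 15 further genes of this family in the table, 4 were tested (Ogn, Fmod, Nyx and Tsku), with 0 called in either direction, and 4 had no count in any library (Kera, Epyc, Chad and Podnl1). Podnl1 is the closest relative of Podn. Ogn, which encodes osteoglycin, was far more abundant than any of the set's proteoglycans, at 119 ± 10.7 FPKM in Ctrl and 116 ± 15.5 FPKM in cKO. Its log2 difference of −0.25 (SE 0.13) did not pass (edgeR adjusted p = 0.232). Podn stood at 0.129, 0.0923 and 0.133 of the Ogn FPKM in Ctrl 1, 2 and 3, and at 0.00218 and 0.00461 in cKO 1 and 2. Fmod (fibromodulin) had 2 and 53 counts in cKO and 30 to 66 in Ctrl, and its log2 difference of −0.91 (SE 1.06) was not called (edgeR adjusted p = 0.607). The median log2 fold change of the 4 tested genes was −1.15, and 1 of them (Tsku, lower) had an unadjusted p under 0.05 in edgeR, with 0 called by DESeq2. Of 21 genes for making dermatan and chondroitin sulfate chains, 15 were tested, with 0 called in either direction and a median of −0.62. Over all genes tested, 7.73% were called lower and 5.76% higher. In edgeR 4 of the 15, all lower, had an unadjusted p under 0.05, DESeq2 called 0, and over all the alternatives 0 to 8 were called lower. For neither list is the share of all genes at that unadjusted threshold given here. The abundant members Chst12, a chondroitin sulfotransferase gene, and B3gat3, which completes the linker of the chains, did not pass (0.39 and 0.63, edgeR adjusted p = 0.462 and 0.209).

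Among 25 other microfibril and elastic fibre genes, 18 were tested, and 1 rose and 2 fell, against 5.76% and 7.73% of all genes tested. The median log2 fold change of the 18 was −0.42. The 2 genes of the list that fell encode emilins, glycoproteins at the interface of elastin and microfibrils. Emilin3 had 38 and 16 counts in cKO 1 and 2, against 144, 151 and 327 in Ctrl 1, 2 and 3, and fell by 3.05 (SE 0.54, edgeR adjusted p = 0.0227). Emilin2 had 46 and 61 counts in cKO, against 321, 289 and 175 in Ctrl, and fell by 2.51 (SE 0.42, edgeR adjusted p = 0.021). Adamtsl5, an ADAMTS-like gene whose product binds fibrillin, rose by 3.63 (SE 0.89, edgeR adjusted p = 0.0466) from low levels, with 21 and 46 counts in cKO, against 1, 1 and 5 in Ctrl. Each of these calls was lost without Ctrl 1 or without Ctrl 2, and those of Emilin3 and Adamtsl5 also without Ctrl 3. The call of Adamtsl5 was lost on log2(FPKM + 1) and with no filter too. The most abundant tested genes of the list did not pass. Mfap4, another microfibril-associated gene, had a mean of 11.3 ± 4.12 CPM in cKO against 20.3 ± 2.97 CPM in Ctrl (−0.85, edgeR adjusted p = 0.0886), and Efemp2 (fibulin-4, which recruits lysyl oxidase) 13.1 ± 2.43 against 9.3 ± 0.864 CPM (0.49, edgeR adjusted p = 0.161). Elastin itself (Eln) had 4 and 21 counts in cKO, against 5, 0 and 1 in Ctrl and was not tested.

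Of 12 other genes for lysyl oxidation and collagen lysine processing, 8 were tested, with a median of −1.22. Of these, 4 fell and none rose, against 7.73% and 5.76% of all genes tested. Loxl2, a scavenger-receptor-type lysyl oxidase, went from 5.51 ± 1.88 CPM in Ctrl to 1.21 ± 0.389 CPM and fell by 2.17 (SE 0.44, edgeR adjusted p = 0.03). Its counts were partly fractional, so some of its reads were shared with other genes. Plod2, a collagen lysyl hydroxylase gene, went from 13.3 ± 4.75 CPM to 2.98 ± 0.112 CPM and fell by 2.15 (SE 0.35, edgeR adjusted p = 0.019). Bmp1, which encodes the protease that releases active lysyl oxidases from their proforms, went from 23.4 ± 2.44 CPM to 10.1 ± 0.309 CPM and fell by 1.22 (SE 0.17, edgeR adjusted p = 0.0142). Atp7a, a copper transporter gene that supplies copper to secreted enzymes such as lysyl oxidases, fell by 1.22 (SE 0.28, edgeR adjusted p = 0.0412). Pcolce, an enhancer of Bmp1, and Plod1, another lysyl hydroxylase gene, were not called (log2 differences −1.3 and −0.63, edgeR adjusted p = 0.09 and 0.174). The number of genes of this list called lower ran from 0 to 6 over the alternatives, and each of the 4 calls was lost when any 1 Ctrl library was left out. That of Atp7a was also lost with total-count scaling and on FPKM.

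The latent TGF-β list held 17 tested genes, of which 2 fell and 1 rose (median −0.3), against 7.73% and 5.76% of all genes tested. Tgfb2, a TGF-β ligand gene, fell by 1.02 (SE 0.18, edgeR adjusted p = 0.0232), and Thbs1, whose product can activate latent TGF-β, fell by 3.58 (SE 0.86, edgeR adjusted p = 0.0448) with 54 and 8 counts in cKO and 208 to 474 in Ctrl. Nrros, which anchors latent TGF-β on macrophages and microglia in place of an LTBP, rose by 3.26 (SE 0.61, edgeR adjusted p = 0.0257), with 87 and 72 counts in cKO and 3 to 10 in Ctrl. The integrin genes Itgb5 and Itgb1 led in abundance and were not called (−0.31 and −0.17, edgeR adjusted p = 0.305 and 0.594), and Itgb1 turned to 0.07 with total-count scaling. With any 1 Ctrl library left out, none of the 3 calls of this list was kept, and that of Tgfb2 was also lost with total-count scaling and on FPKM.

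**Figure D4:**
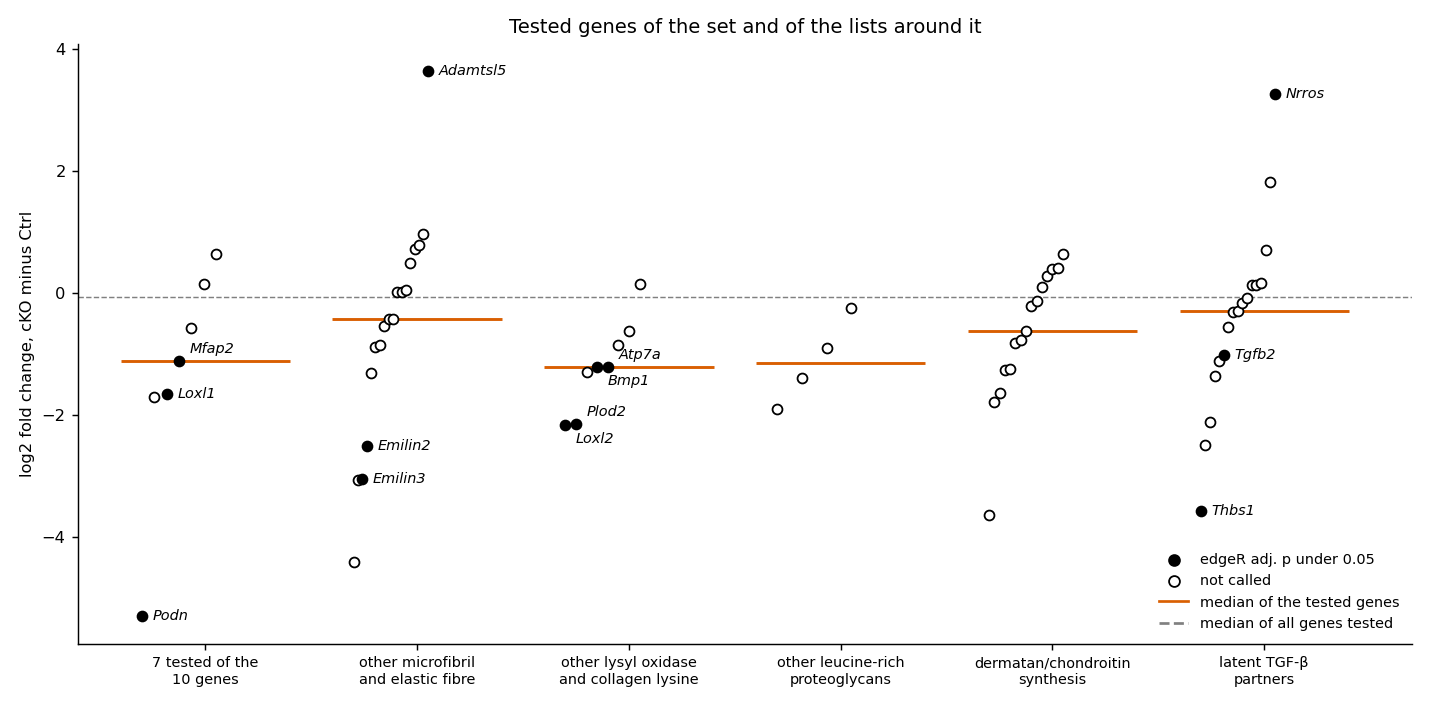
Log2 fold change (cKO minus Ctrl) of each tested gene of the set and of 5 lists around it, with genes passing edgeR's adjusted p under 0.05 filled and named. The medians (orange) lie between −1.22 and −0.3, all below the median of all genes tested (−0.06, dashed), and Adamtsl5 and Nrros are the named genes above 0.

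Markers of the cells that a lens pool could hold were summed in each library. The 12 lens epithelium markers summed to 1810 and 3280 CPM in cKO and 2510 to 2770 CPM in Ctrl, with 5 called lower, among them Cdh1 (E-cadherin, 1 and 0 counts in cKO, 440 to 986 in Ctrl). These sums overlapped between the groups, and Dkk3 alone gave 906 and 1880 CPM in cKO and 1270 to 1490 CPM in Ctrl. In both cKO libraries 6 of the 12 lay below every Ctrl library (Pax6, Foxe3, Cdh1, Gja1, Mab21l2 and Npnt), against 28.7% of all genes tested. Cdkn1c lay above, against 22.8%, and the others overlapped. The 15 lens fibre markers summed to 481000 and 390000 CPM in cKO and 503000 to 568000 CPM in Ctrl, without overlap. Of these, 4 were called lower (the crystallin genes Cryga and Crygb, and Bfsp1 and Lgsn), against 7.73% of all genes tested. Crygb alone gave 59700 and 27100 CPM in cKO and 110000 to 123000 CPM in Ctrl. Cryga gave 5330 and 839 CPM in cKO and 53200 to 56600 CPM in Ctrl. Of the 15, 8 lay below every Ctrl library in both cKO libraries, against 28.7% of all genes tested. Crybb1 lay above, against 22.8%, and the others, such as Cryaa and Cryba1, overlapped. Macrophage markers summed to 138 and 37.4 CPM in cKO and 1.61 to 3.39 CPM in Ctrl. Of the 12, 8 were tested and 7 of these called higher, against 5.76% of all genes tested. Fibroblast markers summed to 12.8 and 10.1 CPM in cKO and 23.3 to 28.1 CPM in Ctrl, with Col1a1 called higher, Pdgfra called lower and Dpt at 0 in every library. Without Pdgfra, a sum made after seeing the data, they stood at 10.9 and 10.1 CPM in cKO and 3.42 to 7.61 CPM in Ctrl, the other way round. Mural cell markers stood at 270 and 295 against 167 to 231 CPM, and endothelial markers at 28.3 and 17.7 against 8.15 to 13.7 CPM. None was called in either list, while 0 mural and 5 endothelial markers (4 higher, 1 lower) had an unadjusted p under 0.05 in edgeR, and DESeq2 called 0 and 3. Most of the mural sum was Acta2, at 234 and 248 CPM in cKO and 132 to 199 CPM in Ctrl. Of the 5 tested mural markers, Acta2 and Rgs5 lay above every Ctrl library in both cKO libraries, and the others, such as Pdgfrb, overlapped. Pigment epithelium markers stood at 4.7 and 0.819 against 6.25 to 14.1 CPM. Photoreceptor markers stood at 9.03 and 1.49 against 1.92 to 41.1 CPM. None was called in either list, while 3 pigment epithelium and 0 photoreceptor markers had an unadjusted p under 0.05 in edgeR, and DESeq2 called 2 and 0. The share of all genes at that unadjusted threshold is not given here, so these counts show no excess. Over all 11724 genes tested, DESeq2 called 1209 higher and 1521 lower. Of 6 corneal markers, Krt12, Krt5, Krt14 and Trp63 were at 0 in every library, and Aldh3a1 was called lower, with 0 counts in both cKO libraries and 70 to 190 in Ctrl. With any 1 Ctrl library left out, edgeR called 0 macrophage, fibroblast or lens fibre markers and 2 to 3 lens epithelium markers. The call of Aldh3a1 was lost without Ctrl 1 or Ctrl 2, and that of Pdgfra also with DESeq2. The part of these cells in the falls of Podn, Loxl1 and Mfap2 was not tested.

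Genes of most similar profile were found by the distance between centred log2 CPM values over the 5 libraries, as a description. Nearest to Podn were Vash2 (distance 0.489) and Rrm2 (0.501), which encodes a subunit of ribonucleotide reductase. Both had 0 counts in cKO 1. Nearest to Loxl1 were Zfp451 (0.179) and Ggct (0.211), and nearest to Mfap2 were Nmrk1 (0.0758) and Gprasp2 (0.0851). Ltbp1 lay nearest to Zfp280b (0.0704) and Mrps2 (0.0824), and Bgn to Rbm25 (0.112) and Gtf3a (0.125). Fbn1 lay nearest to Frzb (0.177) and Topbp1 (0.509), and Lox to Gcnt2 (0.573) and Myc (0.637), at low counts. Within the set, the closest pair was Ltbp1 with Mfap2 (0.838), followed by Loxl1 with Mfap2 (0.919), and Podn was at least 4.18 from every other tested gene of the set. This distance also counts the size of a change, which was largest for Podn. In Pearson r over the same values, Podn with Mfap2 (0.958) and with Loxl1 (0.931) were the highest pairs. Ltbp1 with Mfap2 had an r of 0.776. The 5 points of each profile share their libraries and groups.

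In the table's own Gene Ontology fields, 4 of the 10 genes (Fbn1, Fbn2, Mfap2 and Ltbp1) carried a cellular component term naming the microfibril, of 13 genes in all. An extracellular region term was carried by 9 of the 10, all but Ltbp2, against 8.38% of all genes. No count of any of the 10 genes was fractional in any library, so none of their reads was estimated as shared with another gene.

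**Figure D5:**
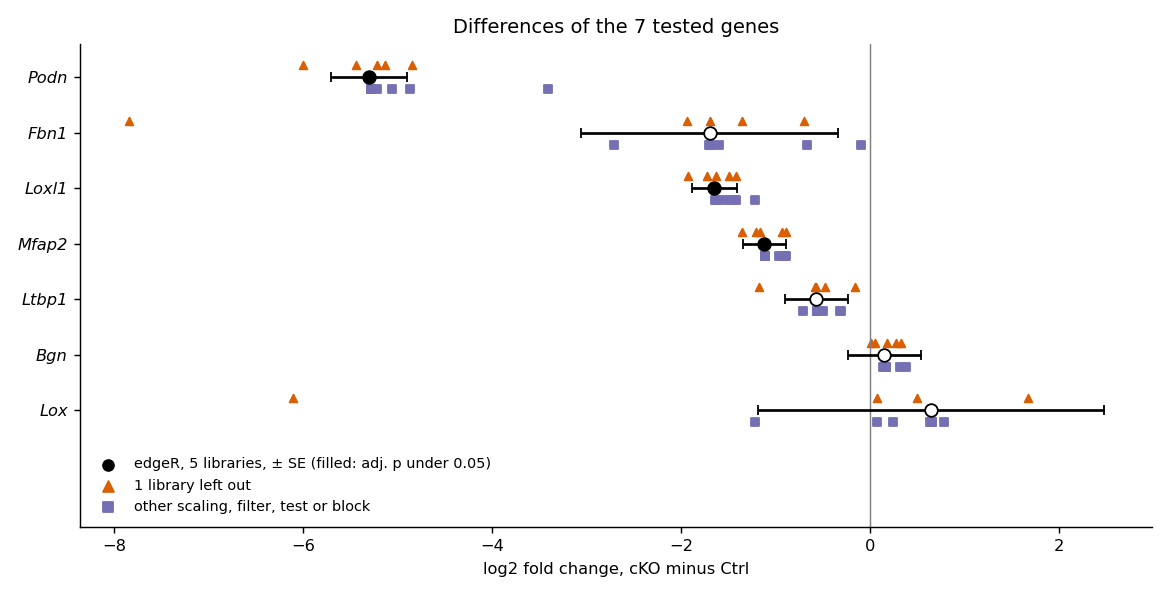
Log2 fold change (cKO minus Ctrl) of the 7 tested genes with its SE (black, filled where edgeR's adjusted p was under 0.05), beside the values with 1 library left out (triangles) and under the other settings (squares). Podn stays between −6.0 and −3.41, Loxl1 between −1.93 and −1.22 and Mfap2 between −1.36 and −0.89, whereas Lox lies on both sides of 0. The outlying triangles of Fbn1 (−7.84) and Lox (−6.11) come from leaving out cKO 1, when the remaining cKO library is at 0 and the fitted value is no measure of size.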

How the data were processed

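Poly(A) RNA from pools of whole P14 lenses was sequenced as paired 150 bp reads, per the labels' protocols. RSEM, Trimmomatic 0.18.0 and GRCm39 are named in the submitters' processing notes. The deposited table holds, per gene and library, expected counts and FPKM made by the authors. Of the count values, 6.03 to 7.47% per library were not whole. Counts were rounded to whole numbers.

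Genes passing filterByExpr (minimum count 10, minimum total 15) were scaled by TMM and tested with edgeR 4.0.16's quasi-likelihood test (R 4.3.3), with Benjamini-Hochberg adjustment over all 11724 genes and a threshold of 0.05. The script was tested on simulated data. CPM are counts over TMM-scaled library sizes. FPKM were used as deposited, for levels between genes and ratios. Alternatives were DESeq2 1.42.0 size factors and Wald test, total-count scaling, no filter, limma 3.58.1 on log2(FPKM + 1) and log2(FPKM + 0.1), leaving out each library, and a replicate block.

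The 10 genes and the lists were chosen with earlier results of these data known. From each pathway list, every called gene was named (at most 4, by size of change) with the 2 tested genes of highest mean FPKM, and for each tested gene of the set the 2 of nearest profile. Markers and others were named after their values were seen. Labels number the pools without saying whether litters were shared, so p-values measure the spread between these pools, which may be technical.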

Additional observations from a re-analysis of the deposited data

How the results depend on the processing

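Podn passed under all 12 alternatives (−6.0 to −3.41). Mfap2 missed the threshold with total-count scaling (−0.9), on log2(FPKM + 1) (−0.89) and log2(FPKM + 0.1) (−0.9), and with 1 library left out it ranged from −1.36 to −0.89. For Loxl1 that range was −1.93 to −1.42, for Ltbp1 −1.18 to −0.16 and for Fbn1 −7.84 to −0.7. Lox ranged from −6.11 (without cKO 1) to 1.67 and was not tested without Ctrl 2. Ltbp1 passed without cKO 2. The calls of Fbn1 without cKO 1 (the other cKO library at 0) and of Dcn without cKO 2 (filter passed through cKO 1 alone) follow from the library left out and are no test. With 1 library left out, 0 to 1 of the genes of the set were called higher and 1 to 4 lower, and their median ran from −1.93 to −0.89. The median was −0.31 on log2(FPKM + 1) and −0.67 on log2(FPKM + 0.1). Fewer samples or a pseudocount enter by construction, and otherwise the cause was not tested.

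Over all genes, 1234 were called higher with total-count scaling, 1209 with DESeq2, 1380 on log2(FPKM + 1) and 1402 on log2(FPKM + 0.1), and DESeq2 called 1521 lower. With 1 library left out, 6 to 2197 were called higher and 15 to 2964 lower. Where 1 cKO library remained, it was assumed to vary like the controls. Among other named genes, Itgb1 turned positive with total-count scaling (0.07), on both FPKM scales (0.02 each) and without cKO 1 (0.08), Fmod reached 0.01 without cKO 1 and Chst12 −0.14 without cKO 2. With 1 library left out, Itgb1 ranged from −0.5 to 0.08, Fmod from −4.48 to 0.01 and Chst12 from −0.14 to 0.76.

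Pools share the numbers 1 and 2 across groups. Deviations from the group means correlated at 0.111 for the pools numbered 1 and −0.083 for those numbered 2. With 2 cKO pools, their deviations are equal and opposite, so these values cannot settle whether the number pairs the pools. With a replicate block, 68 genes were called higher and 107 lower, and 1 gene of the set (Podn) was called. The block gave −0.96 for Mfap2, −1.55 for Loxl1 and −1.22 for Lox, and it ended the calls of Emilin3, Adamtsl5, Loxl2, Plod2, Atp7a, Bmp1, Thbs1, Nrros, Tgfb2, Col1a1 and Pdgfra. It left 4 macrophage, 4 lens epithelium and 1 lens fibre marker called. Depth limits Fbn2, Ltbp2, Lox and Fbn1, which had at most 35 counts in any library.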
